A study of Homo sapiens with 6 samples.

Results

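The 47 interferon-stimulated genes described here were a set of antiviral effectors, sensors and transcription factors listed by name. The rule for membership uses no measured value, although the list was drawn up with earlier results of these data known. All 47 were found by symbol, each as 1 record, among the 23284 gene symbols of the expression tables, and all 47 passed the filter on low values, a mean above 1 FPKM in at least 1 group, which kept 11134 genes. FPKM stands for fragments per kilobase of transcript and scaled to the mapped reads of the sample, so that levels of different genes are compared per length. The samples were 3 controls and 3 lyophilized samples of GM12873, a B-lymphoblastoid cell line, that is, B cells transformed with Epstein-Barr virus and kept in culture. Cells were washed in PBS and were then either dissolved directly in a phenol reagent (control) or freeze-dried in 0.1 M trehalose, kept for 2 weeks at room temperature and dissolved in the same reagent (lyophilized). The labels pair control 1 with lyophilized sample 1 and so on, and the samples of a pair are referred to below as culture 1, 2 or 3. The labels name no treatment with interferon or virus, and the groups share the line, the medium and the wash. A single line of this kind carries a resident virus, which limits what its interferon programme stands for in B cells in general.

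Interferons are secreted proteins that warn cells of infection. Type I interferons bind a receptor made of IFNAR1 and IFNAR2, whose kinases phosphorylate STAT2. A complex that holds STAT2 and IRF9 then binds the interferon-stimulated response element, a short DNA element in front of many of the genes described here. Type II interferon acts through another element, the gamma-activated site. The induced proteins bind or degrade viral RNA (IFIT, OAS), block entry and release of virus particles (IFITM, BST2) or tag other proteins (ISG15). In lymphoblastoid cells many of these genes are active without added interferon.

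Promoter windows from 250 bases before to 50 bases after the gene start (RefSeq, GRCh38.p14) were at hand for 37 of the 47 genes, in 48 windows. The other 10 were IFIT2, MX2, OAS2, OASL, IRF7, IFITM2, USP18, GBP2, GBP5 and TRIM22. The letters GAAANNGAA, the repeated core of the interferon-stimulated response element, were searched on both strands. They stood in the windows of 27 of the 37 genes (73.0%), compared with 9.86% of all 27305 genes with a window. The letters TTCNNNGAA, the core of the gamma-activated site, which reads the same on both strands, stood in 12 (32.4%), compared with 9.38% of all genes. The 2 patterns can overlap, and a match is a description of the letters only. The windows below carry the elements that recur across the families. Each is 60 bases, is written 5′ to 3′ on the strand of its gene and has the matched letters in capitals.

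In ISG15, the gene of a ubiquitin-like modifier and one of the most abundant members, 3 overlapping matches formed 1 run of repeats (chr1:1013371-1013430, plus strand).
ISG15: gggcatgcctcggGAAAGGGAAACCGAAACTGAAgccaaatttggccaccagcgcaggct
The IFIT genes lie side by side on chromosome 10. In the stretch shown, IFIT1 (chr10:89392496-89392555, plus strand) and IFIT5 (chr10:89414540-89414599, plus strand) both hold a pair of matches, read here on the opposite strand.
IFIT1: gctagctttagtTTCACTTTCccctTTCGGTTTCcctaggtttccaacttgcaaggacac
IFIT5: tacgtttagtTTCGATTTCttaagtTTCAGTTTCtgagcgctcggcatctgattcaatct
The neighbours IFITM1 (chr11:314009-314068, plus strand) and IFITM3 (chr11:320861-320920, minus strand) show how alike these family members are in the bases around the element.
IFITM1: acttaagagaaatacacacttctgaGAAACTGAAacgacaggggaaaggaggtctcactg
IFITM3: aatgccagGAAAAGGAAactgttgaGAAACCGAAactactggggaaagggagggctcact
Among the genes called below between control and lyophilized samples, SAMD9 (chr7:93118081-93118140, minus strand), DDX60 (chr4:168318771-168318830, minus strand) and OAS3 (chr12:112938437-112938496, plus strand) held 1 match each in the stretch shown.
SAMD9: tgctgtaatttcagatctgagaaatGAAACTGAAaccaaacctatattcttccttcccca
DDX60: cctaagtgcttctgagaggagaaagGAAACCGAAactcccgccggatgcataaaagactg
OAS3: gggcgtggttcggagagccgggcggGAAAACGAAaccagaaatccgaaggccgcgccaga
DTX3L (chr3:122564307-122564366, plus strand) and PARP9 (chr3:122564306-122564365, minus strand), whose proteins act as partners, start head to head, and the match at chr3:122564332-122564340 lies in the windows of both.
DTX3L: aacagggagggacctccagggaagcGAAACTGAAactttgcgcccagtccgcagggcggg
PARP9: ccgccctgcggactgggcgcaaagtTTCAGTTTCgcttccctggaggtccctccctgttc
The measured records of RSAD2 (hg19, chr2:7017796-7038363) and CMPK2 (hg19, chr2:6980684-7006766) lie apart. A window of RSAD2 further downstream holds a match of its own, at chr2:6877633-6877641. Only the upstream window of RSAD2, shown here in part (chr2:6865781-6865840, plus strand), shares a match with CMPK2, at chr2:6865806-6865814.
RSAD2: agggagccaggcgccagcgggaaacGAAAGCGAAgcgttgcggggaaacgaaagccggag
IRF1 (chr5:132490863-132490922, minus strand) and IRF9 (chr14:24161177-24161236, plus strand), transcription factors of the pathway, held no GAAANNGAA in their windows and 1 match to the gamma-activated site each.
IRF1: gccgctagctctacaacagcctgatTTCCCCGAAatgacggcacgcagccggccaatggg
IRF9: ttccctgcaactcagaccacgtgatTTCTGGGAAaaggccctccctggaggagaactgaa

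At 25 genes a match to GAAANNGAA began within 150 bases before the start, and 16 genes held 2 or more matches in a window. Counted over windows, 32 of 48 (66.7%) held the letters, compared with 8.11% of all 35116 windows. With matches wholly before the start only, the share was 24 of 37 genes (64.9%), compared with 8.41% of all genes. The plot of match positions shows that most matches lay close in front of the start.

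**Figure D1:**
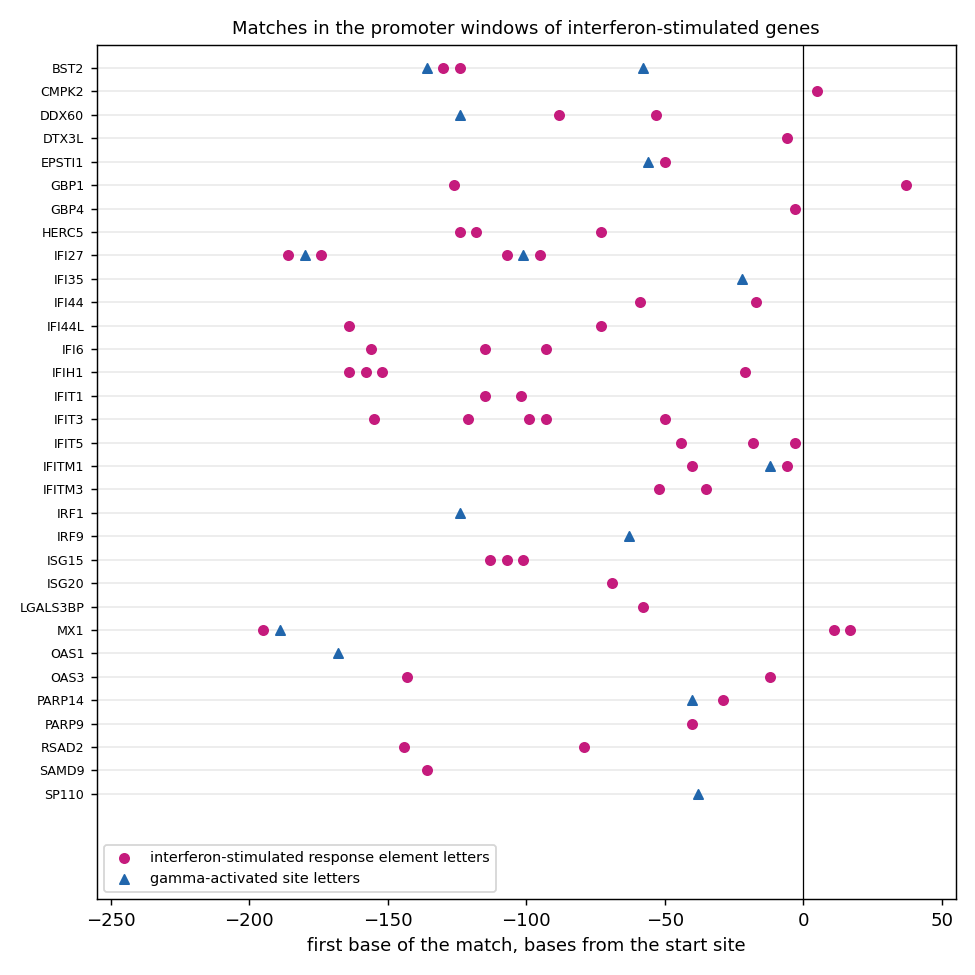
First base of each match to the letters of the interferon-stimulated response element (circles) and of the gamma-activated site (triangles), in bases from the start site of the gene, for the members with at least 1 match; one row is one gene. The matches of 25 genes begin within 150 bases before the start, and only a few lie after it.

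The labelled cell type was checked first. All 8 B-cell markers and all 5 markers of virus-transformed B cells exceeded 1 FPKM, and the summed level of the B-cell markers ranged from 4524 to 6332 FPKM in the controls and from 4517 to 6296 FPKM in the lyophilized samples. None of the markers of T cells, monocytes, natural killer cells, fibroblasts or erythroid cells exceeded 1 FPKM in any sample. Of the 2 markers of plasmacytoid dendritic cells, the blood cells known for making interferon, LILRA4 ranged from 0.763 to 3.00 FPKM and CLEC4C stayed at or below 0.12 FPKM. In bulk RNA, fewer cells of a type and less RNA per cell cannot be told apart. Summed over all records, the samples held 468790 to 524744 FPKM. The tables hold no read counts, so the number of reads behind each value is not known and no counting interval is given. The paper lists the raw reads of each library, and these were unequal within pairs. Control 1 had the fewest and lyophilized sample 1 the most.

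The 47 genes were expressed over a wide range. Their mean level over the 6 samples had a median of 26.5 FPKM, compared with 10.3 FPKM over all genes tested, and ran from 1.90 FPKM for RSAD2, an antiviral enzyme that blocks viral RNA synthesis, to 695 FPKM for IFITM1, which hinders virus entry at the cell membrane. Together they held 0.606% to 0.795% of the summed FPKM of a sample, with the lowest share in culture 2 of either group. IFITM1 and ISG15 alone made up 27.8% to 39.5% of that sum.

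**Figure D2:**
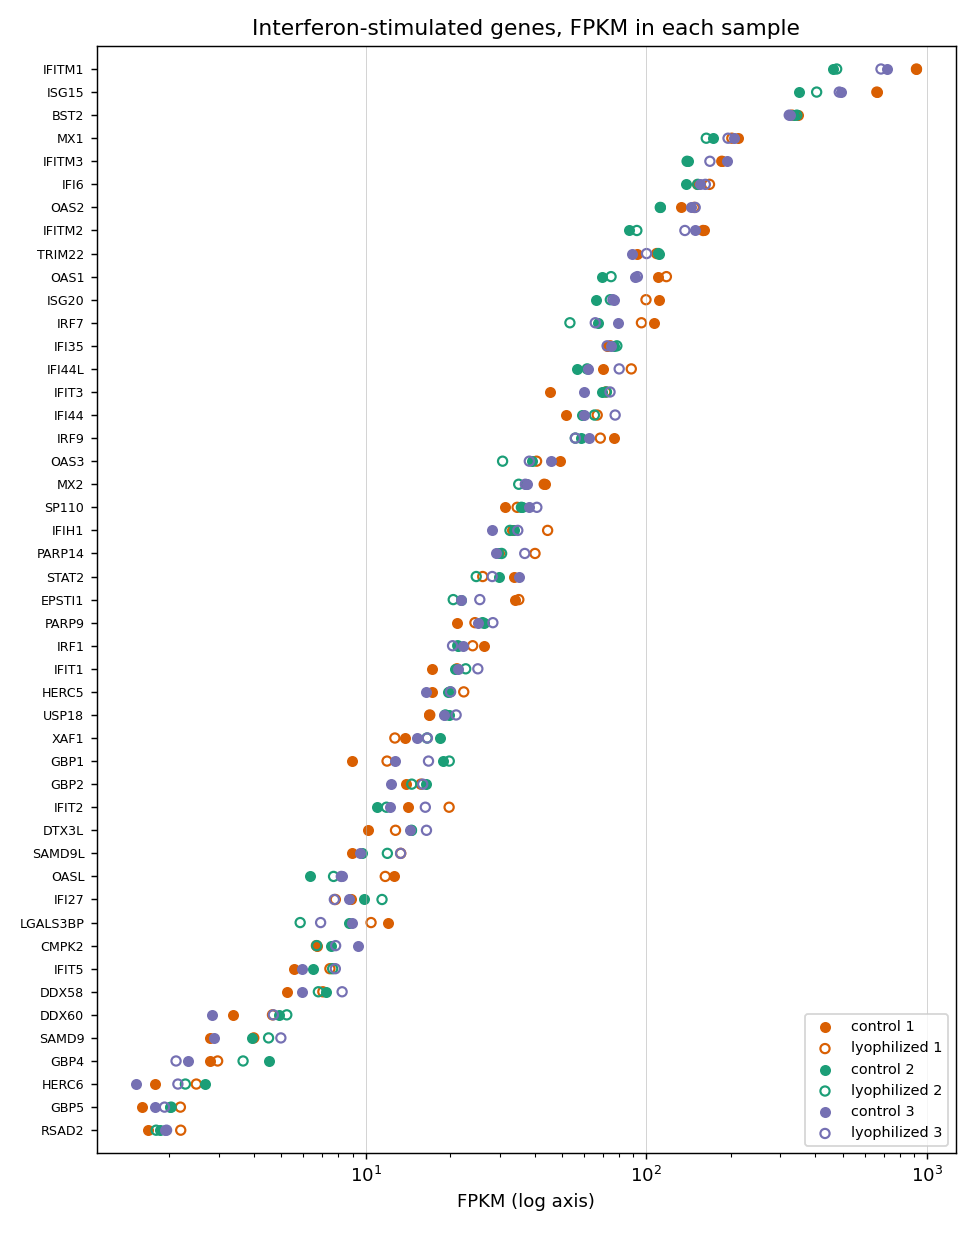
Level of each of the 47 genes in FPKM on a log axis, ordered by mean, with filled circles for controls and open circles for lyophilized samples and one colour per culture. Levels run from about 2 FPKM for RSAD2, GBP5 and HERC6 to 695 FPKM for IFITM1, and for IFITM1 and ISG15 the samples separate by culture (culture 1 highest, culture 2 lowest in each group).

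The membrane proteins were among the most abundant. IFITM1 measured 911, 463 and 718 FPKM in controls 1, 2 and 3 and 917, 477 and 685 FPKM in the lyophilized samples of the same number. BST2, also called tetherin, which holds budding virus at the cell surface, measured 348, 335 and 325 FPKM in the controls and 330.2, 344 and 323 FPKM in the lyophilized samples. For IFITM1 the paired values were close while the cultures lay far apart, and for BST2 all 6 values were close. IFITM2, a family member in endosomes, measured 160.1, 86.7 and 149 FPKM in the controls and 159, 92.5 and 137 FPKM in the lyophilized samples. IFITM3, its close relative, measured 185, 141 and 194 FPKM and then 186, 139.7 and 168 FPKM. In both genes the lowest value of either group was that of culture 2. Also among the 5 highest were ISG15 with 666, 349 and 495 FPKM in the controls and 663, 404 and 487 FPKM in the lyophilized samples, and MX1, a dynamin-like GTPase that blocks incoming viral nucleocapsids, with 212, 172 and 205 FPKM and then 202, 164 and 195 FPKM. The controls and lyophilized samples overlapped in all of these genes.

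The study asked whether RNA of freeze-dried cells represents that of the untreated cells. Tested by condition only, 0 of the 47 genes passed an adjusted p of 0.05 in limma, compared with 0.575% of all genes tested. At an unadjusted p below 0.05 there were 5 (IFI44, IFIT5, SAMD9, SAMD9L and STAT2), or 10.6%, compared with 14.1% of all genes. The median log2 fold change (lyophilized minus control, from log2(FPKM + 0.1), a scale that shrinks differences of weakly expressed genes) was 0.08 over the 47 genes and 0.04 over all genes, and the 47 values lay between -0.38 and 0.49. By pair, the median difference was 0.14, 0.01 and 0.10 on the log2 scale in pairs 1, 2 and 3, compared with 0.04, 0.00 and 0.03 over all genes.

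With the pair as a block, which removes the differences between cultures, 11 genes rose and 4 fell in the lyophilized samples. These are 23.4% and 8.51% of the members, where 15.9% of all genes rose and 14.9% fell. Because FPKM is scaled to the mapped reads of a sample, such shifts are relative to the other transcripts of that sample. Their cause was not tested. The raised genes were all 4 IFIT genes, both SAMD9 genes, DDX60, IFI44, IFI44L, GBP1 and PARP14, and the lowered genes were STAT2, OAS3, IRF7 and LGALS3BP. The count depended on the pairs used, with 9 genes without pair 1, 24 without pair 2 and 4 without pair 3. The share of all genes called in these reduced fits is not given, so the counts are not read as particular to the set. In 16 genes the lyophilized sample was higher in all 3 pairs (34.0%, compared with 33.4% of all genes), and in 9 it was lower in all 3 pairs (19.1%, compared with 28.8%). All 3 lyophilized values lay above all 3 control values in 7 genes, where 9.66% of all genes did so, and below them in 1 gene, STAT2, where 12.6% did so.

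Among the RNA sensors, DDX60, a helicase that assists the detection of viral RNA, measured 3.38, 4.91 and 2.83 FPKM in the controls and 4.66, 5.24 and 4.69 FPKM in the lyophilized samples. Its groups overlapped only through control 2, and the log2 fold change was 0.42 ± 0.13 (SE of the fit with the block; adjusted p = 0.037 with the block and 0.397 by condition only). For IFIH1 (MDA5) and DDX58 (RIG-I), the sensors that start interferon production, the values were 0.23 ± 0.09 (adjusted p = 0.069 with the block) and 0.27 ± 0.12 (adjusted p = 0.108), so neither passed.

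The IFIT proteins bind the ends of foreign RNA and keep it from being translated, and their genes span chr10:91061706-91180759 (hg19). IFIT3 measured 45.3, 69.5 and 59.9 FPKM in the controls and 71.7, 72.1 and 74.2 FPKM in the lyophilized samples, with no overlap of the groups, and its difference was 0.66 in pair 1, 0.05 in pair 2 and 0.31 in pair 3 on the log2 scale. IFIT5 measured 5.54, 6.49 and 5.94 FPKM and then 7.46, 7.63 and 7.80 FPKM, again without overlap. Both rose with the block, IFIT3 by 0.34 ± 0.09 (adjusted p = 0.025) and IFIT5 by 0.35 ± 0.09 (adjusted p = 0.020). In IFIT2 the levels were 14.1, 11.01 and 12.2 FPKM in the controls and 19.8, 11.9 and 16.3 FPKM in the lyophilized samples. The lyophilized sample of IFIT2 was higher in every pair although the groups overlapped (log2 fold change 0.34 ± 0.09, adjusted p = 0.020 with the block). IFIT1 rose by 0.22 ± 0.07 (adjusted p = 0.035 with the block).

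SAMD9 and SAMD9L are large cytoplasmic proteins that limit translation and poxvirus growth, and their genes are neighbours (hg19, chr7:92728826-92777680). SAMD9 measured 2.78, 3.92 and 2.87 FPKM in the controls and 3.99, 4.51 and 4.99 FPKM in the lyophilized samples. SAMD9L measured 8.94, 9.70 and 9.58 FPKM and then 13.3, 11.9 and 13.3 FPKM. In both genes every lyophilized sample exceeded every control, and they had the largest positive fold changes of the 47 genes, 0.49 ± 0.13 for SAMD9 (adjusted p = 0.020 with the block, 0.265 by condition only) and 0.45 ± 0.08 for SAMD9L (adjusted p = 0.005 with the block, 0.137 by condition only).

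IFI44, a cytoplasmic protein that is among the commonest markers of interferon exposure, measured 51.9, 58.8 and 59.9 FPKM in the controls and 66.8, 65.3 and 77.4 FPKM in the lyophilized samples, with no overlap and a log2 fold change of 0.30 ± 0.06 (adjusted p = 0.007 with the block). Its relative IFI44L rose by 0.27 ± 0.06 (adjusted p = 0.011). GBP1, a large GTPase that coats bacteria and parasite vacuoles, measured 8.92, 18.9 and 12.7 FPKM in the controls and 11.9, 19.9 and 16.7 FPKM in the lyophilized samples, and the spread between cultures exceeded the rise of 0.29 ± 0.09 (adjusted p = 0.030 with the block). PARP14, an enzyme that adds ADP-ribose to proteins, rose by 0.27 ± 0.08 (adjusted p = 0.028), whereas PARP9 and DTX3L, which form a complex, differed by 0.12 ± 0.07 and 0.17 ± 0.08 and did not pass. HERC5, the ligase that attaches ISG15 to new proteins, showed no overlap of the groups but did not pass (0.23 ± 0.08, adjusted p = 0.051 with the block).

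The transcription factors of the set pointed the other way from the IFIT and SAMD9 genes, with all 4 log2 fold changes between -0.32 and -0.09 in the values as deposited. After the GC correction described below, STAT2 alone passed, IRF9 came to -0.02, and IRF1 and IRF7 turned to 0.03 and 0.09. STAT2 measured 33.9, 29.9 and 35.3 FPKM in the controls and 26.1, 24.8 and 28.2 FPKM in the lyophilized samples, without overlap, and fell by 0.32 ± 0.06 (adjusted p = 0.005 with the block, 0.266 by condition only). IRF7, the factor that amplifies type I interferon production, measured 106, 67.3 and 79.6 FPKM and then 96.0, 53.4 and 65.8 FPKM. It was lower in every lyophilized sample than in its own control although the groups overlapped, and it fell by 0.25 ± 0.05 (adjusted p = 0.009 with the block). IRF9 and IRF1 were also lower in all 3 pairs but did not pass (adjusted p = 0.080 and 0.310 with the block).

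The OAS proteins make 2′-5′-linked oligoadenylates when they bind double-stranded RNA, and these activate RNase L. OAS3 (hg19, chr12:113376249-113411054), the longest of them, measured 49.3, 39.1 and 45.9 FPKM in the controls and 40.6, 30.7 and 38.3 FPKM in the lyophilized samples. It fell by 0.29 ± 0.06 (adjusted p = 0.005 with the block), with nearly the same difference in every pair. OAS1, OAS2 and OASL did not pass, with adjusted p values of 0.233, 0.303 and 0.666 in the fit with the block. LGALS3BP, a secreted glycoprotein that binds galectin-3, measured 12.0, 8.75 and 8.92 FPKM in the controls and 10.4, 5.84 and 6.91 FPKM in the lyophilized samples and had the lowest fold change of the set, -0.38 ± 0.09 (adjusted p = 0.016 with the block).

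The remaining genes did not pass with the block. They include USP18, the protease that removes ISG15 and dampens the interferon receptor, at 16.9 to 21.0 FPKM over the 6 samples, and HERC6, a relative of HERC5, at 1.52 to 2.67 FPKM. MX2, which acts on virus at the nuclear pore, ranged from 35.1 to 43.6 FPKM, and TRIM22, a ubiquitin ligase, from 89.0 to 111 FPKM. CMPK2, a mitochondrial nucleotide kinase beside RSAD2, ranged from 6.68 to 9.43 FPKM and was lower after lyophilization in each pair (-0.15 ± 0.09, adjusted p = 0.225). XAF1, which promotes cell death, ranged from 12.7 to 18.4 FPKM, SP110, a nuclear body protein, from 31.4 to 40.7 FPKM, and IFI27 from 7.74 to 11.4 FPKM. In each of these genes the controls and lyophilized samples overlapped.

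**Figure D3:**
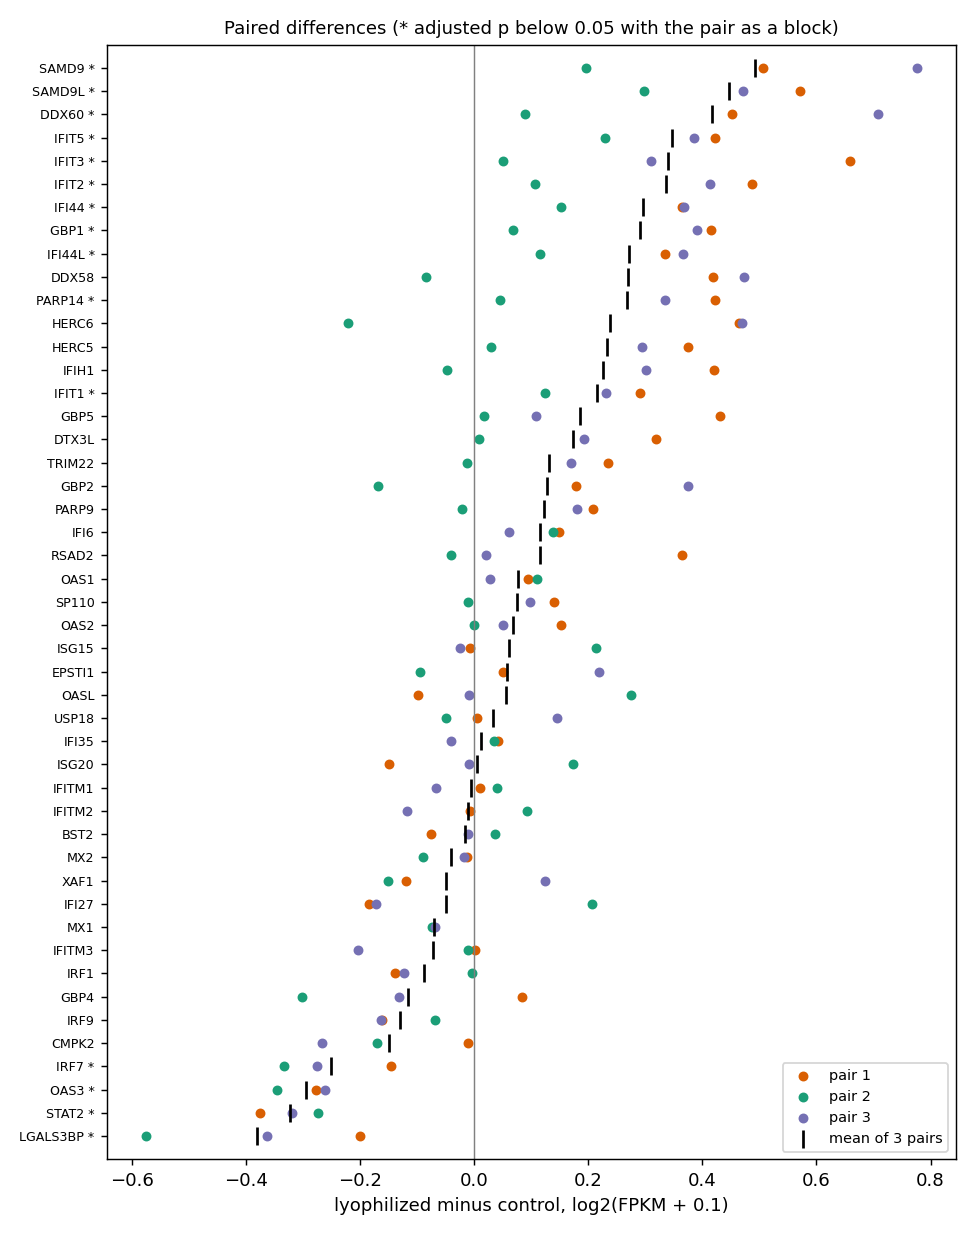
Difference between the lyophilized sample and its own control on the log2(FPKM + 0.1) scale for each of the 47 genes, with one coloured point per pair and a black tick at the mean of the 3 pairs; an asterisk marks an adjusted p below 0.05 with the pair as a block. In all 11 raised genes pair 2 has the smallest difference, and the 4 marked genes at the bottom lie below 0 in every pair.

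The fold changes went with the base composition of the transcripts. Over the 47 genes the log2 fold change had a Spearman correlation of -0.74 with transcript GC content, close to the -0.76 over the 10763 tested genes with a transcript in the annotation. These genes share their libraries, so both values are descriptions. All 11 raised genes had a transcript GC content below the median of all genes (48.1%), as did 26 of the 47. The share of all raised genes below that median is not given, so this count is not read as particular to the set. In the single pairs the correlation over all genes was -0.73, -0.42 and -0.77 for pairs 1, 2 and 3. Over the 47 genes it was -0.73, -0.16 and -0.79. Pair 2, in which all 11 raised genes differed least, was also the pair with the weakest relation. Whether these observations are linked was not tested.

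After the loess trend over transcript GC content had been subtracted in each sample, 7 genes passed as higher and 2 as lower with the block, 14.9% and 4.26% of the 47, where 9.43% and 6.63% of all genes passed. The genes themselves were mostly others. STAT2 (-0.26 ± 0.05, adjusted p = 0.008) and OAS3 (-0.22 ± 0.05, adjusted p = 0.027) passed in both fits. The other 13 genes called with the block alone no longer passed, among them all 4 IFIT genes and both SAMD9 genes. SAMD9L came to 0.18 ± 0.05 (adjusted p = 0.051) and IFIT3 to 0.21 ± 0.08 (adjusted p = 0.107). The fold change of IRF7, which has the most GC-rich transcript of the set (66.8%), turned from -0.25 to 0.09 ± 0.06 (adjusted p = 0.384), and that of IFI44L from 0.27 to 0.00 (adjusted p = 0.957).

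The 7 genes called only after this correction were ISG15, IFI6, IFI35, IFITM1, IFITM2, IFITM3 and BST2. Their transcripts were 787 to 1232 nt long with a GC content of 55.7% to 63.4%, where the median over all genes was 3365 nt and 48.1%. ISG15 had the largest value, 0.36 ± 0.04 (adjusted p = 0.001), where it was 0.06 without the correction and -0.05 after quantile normalization. For IFI6, a mitochondrial protein that inhibits cell death, the value was 0.28 ± 0.05 (adjusted p = 0.006), and for IFITM3 it was 0.19 ± 0.05 (adjusted p = 0.033), where it was -0.07 before. The deposited FPKM values of these 7 genes overlapped between the groups in every case. Over the 47 genes the corrected log2 fold change had a Spearman correlation of 0.23 with transcript GC content, compared with 0.04 over all genes.

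**Figure D4:**
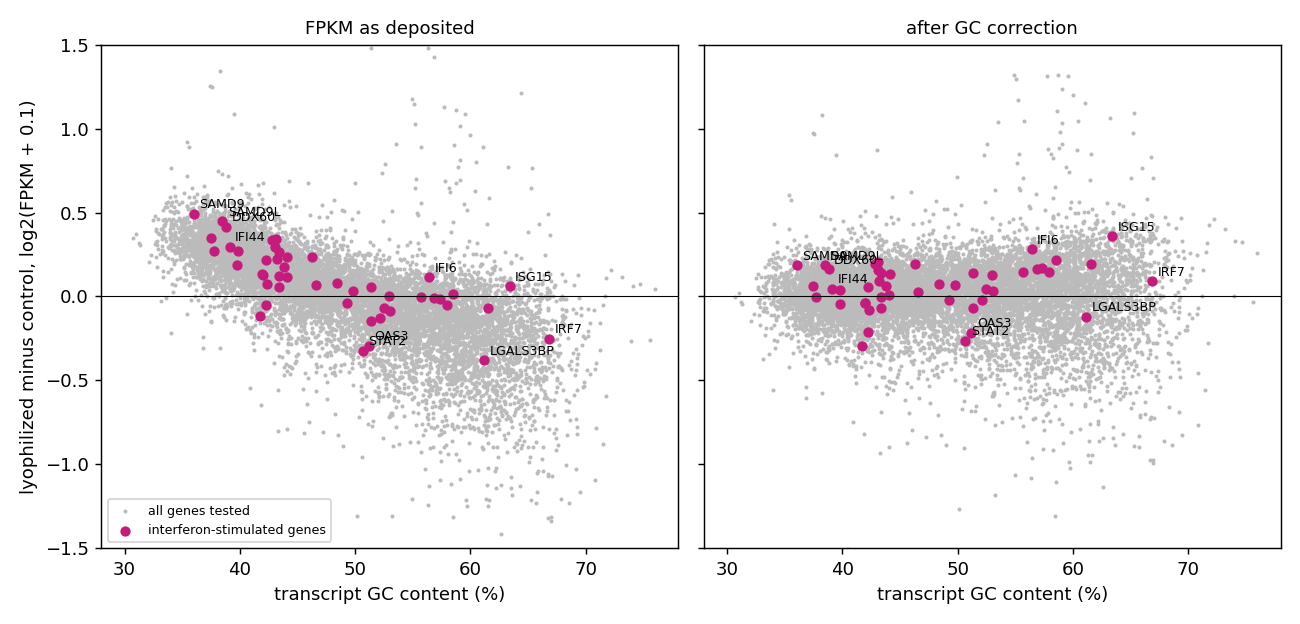
Log2 fold change (lyophilized minus control) against transcript GC content in percent, for the FPKM values as deposited (left) and after the loess trend over GC content was subtracted in each sample (right); grey points are all 10763 genes with a transcript and coloured points the 47 interferon-stimulated genes. On the left the coloured points fall with rising GC content like the grey ones, and on the right STAT2 and OAS3 stay below 0 while ISG15 stands at 0.36; 8 (left) and 12 (right) grey points lie outside the plotted range.

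Differences between cultures were examined next. The range of the 3 culture means had a median of 0.33 on the log2 scale over the 47 genes, compared with 0.34 over all genes. The absolute log2 fold change between lyophilized and control samples had a median of 0.13, compared with 0.18 over all genes. A range over 3 cultures and a difference between group means are unlike measures. The moderated F test over the 3 cultures, with condition as a term, called 25 of the 47 genes (53.2%), where it called 45.2% of all genes. Because the replicates of a culture are its control and its lyophilized sample, these p values set the cultures against the spread between aliquots and not against repeated cultures. In 18 of the 25 genes (72%) culture 1 lay above culture 2, compared with 36.6% of the 5036 genes called over all, and all 18 also passed the test of culture 2 against culture 1. Of the 7 with culture 1 below, DTX3L, GBP1, GBP4, IFI27 and XAF1 passed that test and IFIT1 (adjusted p = 0.085) and SP110 (adjusted p = 0.179) did not. The order culture 1, then 3, then 2 was found in 18 of the 47 genes (38.3%), compared with 19.1% of all genes, while the order 2, then 3, then 1, which 34.1% of all genes showed, was found in 7. Ranked separately, the controls and the lyophilized samples gave the same order of cultures in 24 of the 47 genes (51.1%, compared with 47.6% of all genes).

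IFITM1 and ISG15 had among the largest culture differences. IFITM1 in culture 2 lay 0.96 ± 0.05 below culture 1 on the log2 scale (F test, adjusted p = 1.4e-05), with means of 914 FPKM in culture 1 and 470.0 FPKM in culture 2. For ISG15 the difference was -0.82 ± 0.06 (adjusted p = 6.3e-05), with culture 3 between the other cultures in both genes. IFITM2 lay 0.83 ± 0.06 below (adjusted p = 4.6e-05) and IFITM3 0.40 ± 0.06 below (adjusted p = 0.001), whereas BST2, at 0.00 ± 0.05, did not pass (adjusted p = 0.459). The 3 IFITM genes are neighbours on chromosome 11 (hg19, chr11:308107-320914).

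In the OAS family all 4 genes were called. OAS1 measured 110.3, 69.3 and 91.1 FPKM in controls 1 to 3 and 118, 74.9 and 92.9 FPKM in the lyophilized samples, so that culture 2 lay 0.66 ± 0.06 below culture 1 (adjusted p = 1.2e-04). OASL, which lacks the synthetase activity and enhances RIG-I signalling, measured 12.6, 6.33 and 8.24 FPKM and then 11.7, 7.68 and 8.19 FPKM, a difference of -0.79 ± 0.12 (adjusted p = 0.001). The orders agree between the groups in both genes. EPSTI1 measured 33.9, 21.9 and 21.9 FPKM in the controls and 35.1, 20.5 and 25.5 FPKM in the lyophilized samples (culture 2 minus 1, -0.70 ± 0.09, adjusted p = 5.25e-04). IRF7 lay 0.75 ± 0.07 below culture 1 in culture 2 (adjusted p = 1.1e-04), ISG20, a 3′ exonuclease, 0.58 ± 0.08 below (adjusted p = 7.1e-04) and MX1 0.30 ± 0.05 below (adjusted p = 0.002).

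Of the guanylate-binding proteins, which respond strongly to type II interferon, GBP1 and GBP4 had culture 2 highest. GBP1 was lowest in culture 1 and highest in culture 2 in both groups, by 0.90 ± 0.10 (adjusted p = 4.2e-04). GBP4 measured 2.80, 4.53 and 2.32 FPKM in the controls and 2.97, 3.66 and 2.11 FPKM in the lyophilized samples, with culture 2 highest and culture 3 lowest in each group (adjusted p = 0.005). GBP2 and GBP5 also had their highest culture mean in culture 2 but did not pass the F test (adjusted p = 0.593 and 0.807). Among the RNA sensors, the SAMD9 genes and RSAD2 with CMPK2, this F test on the values as deposited called no gene, while DDX60, IFIH1 and CMPK2 were called after the GC correction described next.

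**Figure D5:**
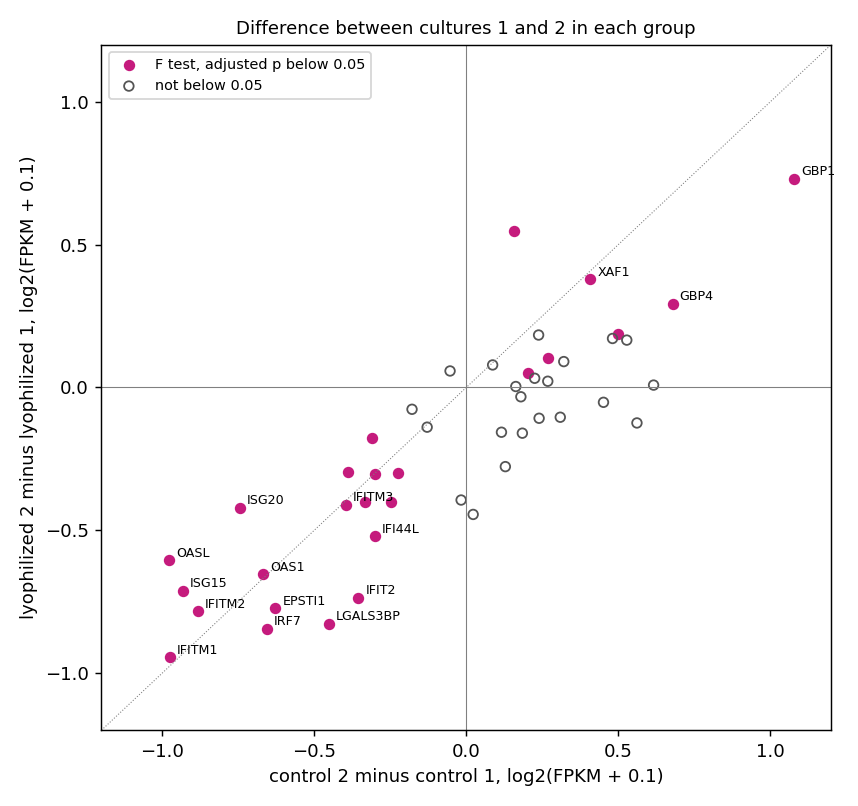
Difference between cultures 2 and 1 on the log2(FPKM + 0.1) scale, in the controls (horizontal axis) and in the lyophilized samples (vertical axis), for the 47 genes; filled points passed the F test over cultures and the dotted line marks equal differences. IFITM1, ISG15, OASL, OAS1, IFITM2 and IRF7 lie at the lower left in both groups and GBP1 at the upper right.

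The difference between cultures 2 and 1 had a Spearman correlation of 0.85 between controls and lyophilized samples over the 47 genes, and 0.73 over all genes. It went with GC content (-0.53 over the 47 genes, -0.32 over all genes) and, within the set, with the level itself, at -0.55 with the log2 mean FPKM where the value over all genes was -0.01. After the GC correction 31 of the 47 genes were called for culture (66%, where 53.9% of all genes were), and 22 of the 25 were among them, the exceptions being IFIT1, IRF1 and SP110. Called only after the correction were CMPK2, DDX60, IFI35, IFI44, IFIH1, PARP14, STAT2, TRIM22 and USP18. Without lyophilized sample 2 the count was 38, without a filter on low values 14, without the variance trend 16 and without the condition term 7. Shares of all genes called in these alternative fits are not given, so the counts are not read as particular to the set. Cell density, time and reagents of each culture are not among the labels, and their part in these differences was not tested.

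Other genes of the pathway were examined from 4 lists. Their counts are to be read against all genes tested, of which 15.9% rose and 14.9% fell with the block, 9.43% and 6.63% did so after the GC correction and 45.2% differed among cultures. Of the 27 genes of interferons and their receptors in the tables, the 21 interferon genes did not pass the filter, and 6 genes were listed at 0 in every sample. IFNA2 had the highest values among them, 0.545, 0.452 and 0.658 FPKM in the controls and 1.11, 0.804 and 0.713 FPKM in the lyophilized samples, and IFNB1 did not exceed 0.23 FPKM. The type I receptor chains were present in every sample, IFNAR1 at 6.76 to 10.7 FPKM and IFNAR2 at 31.2 to 41.5 FPKM. None of the 6 receptor genes passed by condition only, 1 rose with the block (IFNGR1, log2 fold change 0.28, adjusted p = 0.016) and 3 differed among cultures. After the GC correction none of them passed between the groups, and IFNGR1 came to 0.06 (adjusted p = 0.409). IFNGR2, the signalling chain of the type II receptor, measured 49.7, 32.5 and 39.7 FPKM and then 50.6, 33.5 and 36.5 FPKM, again with culture 1 highest. IFNA2, IFNB1, IFNGR1 and the type I receptor chains were picked out with their values in view.

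Of the 15 genes of signalling and its inhibitors, 1 rose and 4 fell with the block, 0 and 1 after the GC correction, and 8 differed among cultures. The feedback inhibitors SOCS1 and SOCS3, which are induced by the same cytokine signals that they shut off, had the widest culture differences. SOCS3 measured 6.76, 2.33 and 3.26 FPKM in the controls and 5.78, 2.36 and 2.50 FPKM in the lyophilized samples, and SOCS1 measured 42.7, 21.0 and 21.4 FPKM and then 37.4, 17.3 and 15.4 FPKM. In both genes culture 1 lay above both other cultures in either group. IRF4, a factor of B-cell activation, was lowest in culture 1, at 114 and 112 FPKM, and reached 174 FPKM in control 2. CISH, another inhibitor, fell from 3.70 ± 0.46 to 2.34 ± 0.08 FPKM (mean ± SD, n = 3 each; log2 fold change -0.63, adjusted p = 0.006 with the block and 0.038 after the GC correction).

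Of 17 tested genes of sensing, 3 rose and 5 fell with the block, 0 and 3 after the GC correction, and 6 differed among cultures. TLR9, the receptor for unmethylated CpG DNA, had the largest fold change, with 4.65, 4.61 and 6.06 FPKM in the controls and 3.03, 2.35 and 2.70 FPKM in the lyophilized samples. The groups did not overlap, and TLR9 fell by 0.89 on the log2 scale (adjusted p = 0.074 by condition only, 0.002 with the block and 0.012 after the GC correction). DHX58 (LGP2), a regulator of the RNA sensors, and ZBP1, a sensor of Z-form nucleic acid, were lowest in culture 2, with 14.1 and 1.05 FPKM in its control. Of the 29 tested further effectors, 4 rose and 4 fell with the block, 5 and 1 after the GC correction, and 14 differed among cultures. PML, the scaffold of nuclear bodies, measured 39.9, 32.2 and 35.9 FPKM and then 26.5, 21.1 and 22.2 FPKM without overlap, and fell by 0.63 (adjusted p = 0.103 by condition only and 0.003 after the GC correction). SAMHD1, which depletes the nucleotides a virus needs, was lowest in culture 1, at 8.03 and 8.14 FPKM, with 13.4 to 15.0 FPKM in the other samples.

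Some of these values share sequence with other genes. In IFITM1, 8.70% of the 75-base stretches of the transcript recur in IFITM2 or IFITM3, in IFITM2 5.04% recur elsewhere, in GBP1 5.52% in its pseudogene GBP1P1 or GBP3, and in USP18 21.1% in USP41. Reads with more than 1 mapping place were not kept by the authors, so levels of these genes may be understated. The library kit does not mark the strand, and reads from gene models that overlap on either strand cannot be told apart. Such overlap covered 88.6% of the stretches of DDX58, 73.7% of XAF1, 44.6% of IRF9, 33.4% of IFITM1 and 26.3% of IFITM3. It covered 16.9% of IFI6, 16.2% of SP110, 13.2% of MX1 and under 10% of IFIT2, CMPK2, IRF1, RSAD2 and IFITM2. In OAS1, GBP4, GBP5 and DTX3L it was 1.40% or less. Overlap leaves the values of these genes less certain than those of ISG15, STAT2, OAS3 or the SAMD9 genes.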

How the data were processed

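Libraries were poly(A)-selected (TruSeq RNA v2) and sequenced as 75 bp single-end reads on an Illumina NextSeq instrument. The authors aligned these reads to hg19 (TopHat2 2.0.7), kept uniquely mapping reads, and computed FPKM values with Cufflinks, whose version and gene annotation are not given in the sources used here. The deposited FPKM tables hold 24934 records per sample and no counts.

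From these, 1 record per symbol was kept, the one with the highest mean. Small RNA genes lacking a poly(A) tail were left out. Values of log2(FPKM + 0.1) were tested in limma 3.58.1 (R 4.3.3) with a trend of the variance over the mean. Benjamini-Hochberg adjustment of p values ran over all genes of a fit, 11134 in the main fits and 10763 after the GC correction. Errors are SE of the fit unless SD is named. The first fit held the condition only. Pairing is given in the labels, and deviations from the group mean correlated at 0.716, 0.603 and 0.476 between samples of pairs 1, 2 and 3 (-0.621 to 0.202 between other samples), so a fit with the pair as a block stands beside it. A loess curve over transcript GC content (span 0.3, degree 2, longest transcript of the gene, coding where there is one, in GENCODE on GRCh37, for 96.7% of genes) was subtracted per sample in a further fit. Scripts were tested on simulated data. Python 3.11.15, pandas 2.3.3 and matplotlib 3.10.9 were used.

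The members, lists and tests were chosen with earlier results of these data known. Values per sample are given for genes past a threshold in any fit, up to 10 by fold change and 10 by culture range, for the 5 highest, and for IFITM genes. One gene of the signalling list is not reported here. Alternatives covered pseudocount, filters, scaling, trend, block, records and each sample left out.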

Additional observations from a re-analysis of the deposited data

How the results depend on the processing

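Tested by condition only, the count of interferon-stimulated genes called between lyophilized and control samples was 0 in limma under each other pseudocount, filter, scaling and record rule, without the trend and without each sample in turn (0 to 0). With the pair as a block it was 15, and with the block and the GC correction it was 9. In the fit with the block, leaving out 1 pair gave 4 to 24 genes, quantile normalization 18 and median-of-ratios scaling 16. The fit with the block and scaled values, and those without a pair, were chosen after the data were seen. For differences among cultures the count of 25 became 14 without a filter on low values, 16 without the trend, 7 without the condition term and 21 to 38 without 1 sample, the highest without lyophilized sample 2. It stayed within 1.5 times of 25 in the others. For fits without a pair or a sample, or with another scaling, filter, trend or condition term, the share of all genes called is not given. Counts from those fits are not read as particular to the set. The share of promoters with the response element was 73.0% with GAAANNGAA and 91.9% with AANNGAAA, letters that 26.7% of all genes hold. The cause of these changes was not tested.

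The log2 fold changes of the 47 genes and of TLR9, CISH and PML were compared under the alternatives, except those chosen after the data were seen. Of these values 60 changed sign, 707 kept sign and call, and 26 kept the sign and passed the threshold in addition. Values that changed sign were counted as such whether or not they passed. With the block and GC correction the changed values were IFITM1 0.15, IFITM2 0.16, IFITM3 0.19, BST2 0.17, IRF7 0.090, IRF1 0.034, IFI27 0.14, MX1 0.044, EPSTI1 -0.067, SP110 -0.083, TRIM22 -0.041, GBP2 -0.041, GBP5 -0.047, PARP9 -0.0033 and IFI44L -0.0042. Quantile normalization gave -0.055 for ISG15, -0.034 for ISG20 and -0.031 for IFI35, and median-of-ratios scaling gave -0.0070 for IFI35 and -0.015 for ISG20. Without 1 sample, which leaves an unbalanced set of cultures, the values ran from -0.27 to 0.24 for IFITM1, from -0.29 to 0.21 for IFITM2, from -0.21 to 0.042 for IFITM3, from -0.041 to 0.0086 for BST2, from -0.020 to 0.038 for IFI35 and from -0.18 to 0.29 for ISG15. They also crossed 0 in EPSTI1 (-0.15 to 0.27), GBP4 (-0.32 to 0.15), IFI27 (-0.23 to 0.045), IRF1 (-0.16 to 0.0058), ISG20 (-0.15 to 0.22), MX1 (-0.16 to 0.022), MX2 (-0.13 to 0.034), OAS1 (-0.099 to 0.24), OAS2 (-0.034 to 0.20), OASL (-0.17 to 0.32), SP110 (-0.0038 to 0.13), USP18 (-0.039 to 0.12) and XAF1 (-0.14 to 0.079). Because the tables hold no counts, the number of reads behind low values such as those of RSAD2, GBP5 and HERC6 is not known.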
